A study of Mus musculus with 29 samples.

Results

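The hypothalamus of 4-week-old mice was compared with that of 3-week-old mice by RNA sequencing. The members are 7 of the 29 libraries of an age series, taken by the age in their labels: 3 at 3 weeks and 4 at 4 weeks. Every mouse was labelled as a wild-type (WT) C57BL/6 male that lived alone in its cage under a light and dark cycle, and the tissue was taken near the middle of the light phase. Neither age received a treatment, so that the groups differ in age alone as far as the labels go. The labels give each library a replicate number and do not say whether a library is 1 animal or a pool, so the p-values speak only of the spread from library to library, which may be technical.

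These ages span weaning and the approach of puberty in the mouse. The hypothalamus holds the neurons that release peptides such as vasopressin, oxytocin and gonadotropin-releasing hormone, and by weaning most of its neurons have been born. Glia develop later. Oligodendrocyte precursors, marked by Pdgfra and Cspg4, pass through a short newly formed stage with Gpr17, Enpp6, Bmp4 and Itpr2, and then make myelin proteins such as Mbp and Mog. The extracellular matrix of the brain and its vessel walls mature over the same weeks.

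Depth was 28775032 to 35029863 gene counts at 3 weeks and 27904191 to 37119179 at 4 weeks, with 18336 to 18816 genes detected over the 7 libraries. The libraries of 4 weeks fell into 2 sets. Replicates 1 and 2 held counts of the salivary gland gene Bpifa2 (37.9 and 41.3 CPM, the counts scaled to a common library size), as did all 3 libraries of 3 weeks (34.2, 46.5 and 42.6 CPM), and replicates 3 and 4 held none. Replicates 3 and 4 also held more of the 7SL RNA copy Rn7s2 (21.7 and 29 CPM) than the other 5 libraries (1.43 to 2.12 CPM), and 9.27 and 9.18% of their reads were set aside for low alignment quality, against 6.59 to 7.3% in the other 5. The labels do not mention these sets. The main results are therefore given for all 4 libraries and, from a fit with a term for replicates 3 and 4 (the set term), for replicates 1 and 2 alone against 3 weeks.

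Markers of neighbouring regions varied between libraries too. Replicate 1 of 3 weeks held more striatal RNA than the others: the summed level of 13 striatal genes was 998 CPM there, 400 to 421 CPM in the other libraries of 3 weeks and 361 to 527 CPM at 4 weeks. Ppp1r1b, a phosphatase regulator of striatal neurons, was at 227 CPM in that library, at 22.9 and 21.5 CPM in the other libraries of 3 weeks and at 21.2 to 68.8 CPM at 4 weeks. Replicate 1 of 4 weeks held the least of 24 hypothalamic transcription factors (192 CPM, against 272 to 379 CPM in the other 6) and the most of 14 thalamic genes (2681 CPM, against 1210 to 2163 CPM). All 24 hypothalamic factors had counts in every library. This does not tell the hypothalamus from its neighbours, since no gene of the thalamic or striatal list was at 0 in all 7 libraries either. Prl and Gh, the defining hormones of the pituitary, were at or near 0 (at most 0.055 and 0.215 CPM). The part of these regional differences in the results was tested only by leaving out 1 library at a time. With the set term the age change rests on replicates 1 and 2 of 4 weeks, so that replicate 1 weighs more there. The median log2 change was -0.158 for the hypothalamic factors and -0.416 with the set term. For the thalamic genes it was 0.258 and 0.436.

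Few genes passed the test for this week. Of 16916 genes tested, 85 (0.502%) passed an adjusted p of 0.05 in edgeR's quasi-likelihood test, 31 (0.183%) higher and 54 (0.319%) lower at 4 weeks. The changes were small: the median size was 0.496 on the log2 scale, and 7 genes rose and 7 fell by 2-fold or more. In 84 of the 85 the libraries of the ages did not overlap. The exception was Chadl, named after its values were seen, which fell with 1 library of 4 weeks (49.9 CPM) above 1 of 3 weeks (48.2 CPM). Over all genes tested, 1084 (6.41%) had every library of 4 weeks above every library of 3 weeks and 1014 (5.99%) had every one below. An unadjusted p below 0.05, a count given below for lists with no called gene, was reached by 1957 genes (11.6%).

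The count rested on single libraries. It was 12 without replicate 1 of 3 weeks, 19 without replicate 2 of 3 weeks, 41 without replicate 3 of 3 weeks, and 42, 208, 20 and 23 without replicates 1 to 4 of 4 weeks in turn. With the set term, 8 genes (0.0473%) passed, 3 higher (0.0177%) and 5 lower (0.0296%). All 8 were among the 85, with the same direction. All 85 kept their direction under the term, which the lack of overlap in 84 of them fixed in advance. The log2 change with the term was 0.878 of that without it at the median, between 0.582 and 1.15. Levels at 5 weeks went further the same way for 19 of the 31 risen genes and 35 of the 54 fallen ones, by the means of the ages. The like share over all genes tested was not computed, so these counts are a description only. All 4 libraries of 5 weeks were without Bpifa2 and held 24.3 to 30 CPM of Rn7s2, as 4-week replicates 3 and 4 did, so at 5 weeks age and library set cannot be told apart.

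**Figure D1:**
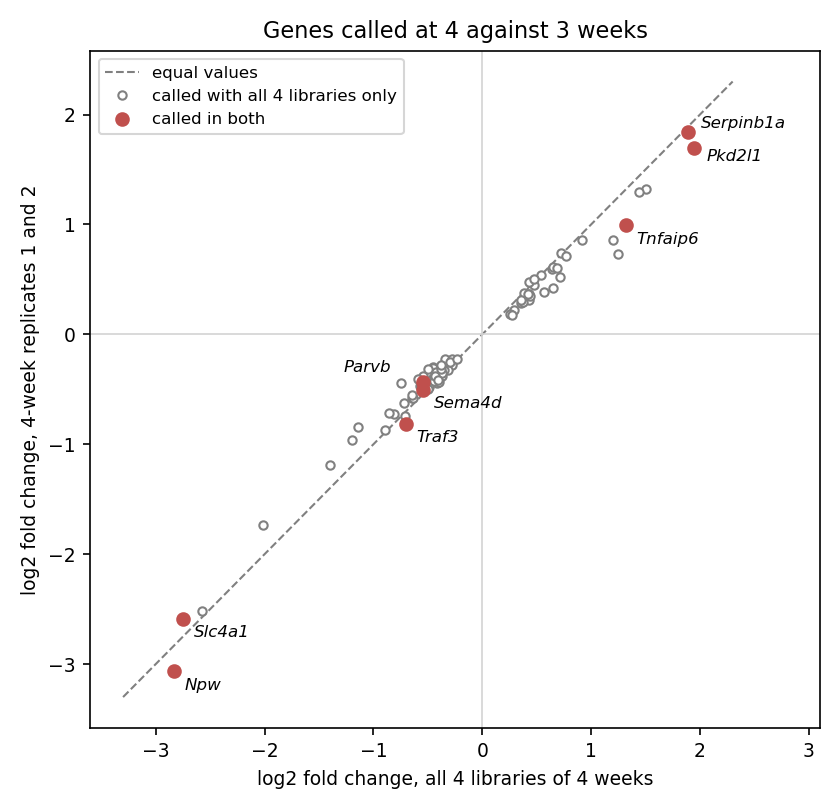
Log2 fold changes of the 85 genes called at 4 against 3 weeks, from all 4 libraries of 4 weeks (x axis) and from replicates 1 and 2 alone, by the set term (y axis). The dashed line marks equal values, and the 8 genes that were called both ways are red and named. Every gene lies on the same side of 0 on both axes, which the lack of overlap in 84 of the 85 fixed in advance.

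The 8 genes that passed both ways were Serpinb1a, Pkd2l1 and Tnfaip6, which rose, and Npw, Slc4a1, Traf3, Parvb and Sema4d, which fell. Each was also called with any 1 of the 7 libraries left out (adjusted p of at most 0.0336 in these fits, for Serpinb1a). Positions are from GENCODE release M21 on GRCm38, and none of the 8 has an exon that overlaps another gene there. When the 7 libraries were fitted without the other ages, 5 of the 8 passed, and Parvb, Pkd2l1 and Tnfaip6 were at adjusted p = 0.0515, 0.058 and 0.0575. With the set term or the replicate number as a block in that small fit, none passed. DESeq2 gave no adjusted p for Npw and Slc4a1 and called the others of the 8.

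Serpinb1a (chr13:32842092-32851185, minus strand) encodes an inhibitor of neutrophil serine proteases and is also a marker of mature oligodendrocytes. It was at 2.57, 2.68 and 3.42 CPM at 3 weeks and at 12.7, 8.25, 9.57 and 12.8 CPM at 4 weeks. Every library of 4 weeks was above every library of 3 weeks, with the sets intermixed. The log2 change was 1.89 ± 0.28 (SE; adjusted p = 0.00164) and 1.84 ± 0.32 with the set term, and the libraries of 5 weeks were higher again, at 13.8 to 20.7 CPM.

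Pkd2l1 (chr19:44147637-44192442, minus strand) encodes a cation channel of the polycystin family, known from neurons that touch the cerebrospinal fluid. It was low throughout, at 0.181, 0.394 and 0.327 CPM at 3 weeks (6, 11 and 11 counts) and at 1.11, 0.852, 1.35 and 1.38 CPM at 4 weeks (36, 31, 40 and 37 counts). The ages did not overlap, and the log2 change was 1.95 ± 0.28 (adjusted p = 0.000977; 1.69 ± 0.31 with the set term). At 5 weeks it reached 2.84 to 3.03 CPM, so that the ordering of the ages was the same as for Serpinb1a.

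Tnfaip6 (chr2:52038009-52056686, plus strand) encodes TSG-6, a protein that binds hyaluronan and moves heavy chains onto it. It was at 4.11, 4.15 and 4.84 CPM at 3 weeks and at 9.6, 8, 14.9 and 11.6 CPM at 4 weeks. Replicates 3 and 4 were the higher ones at 4 weeks, and the log2 change of 1.32 ± 0.19 (adjusted p = 0.000977) was 0.99 ± 0.19 with the set term. Libraries of 5 weeks held 13.5 to 17.2 CPM.

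Npw (chr17:24657330-24658457, minus strand) encodes the precursor of neuropeptide W, a ligand of the receptors NPBWR1 and, in humans, NPBWR2. It was at 1.24, 2.43 and 1.9 CPM at 3 weeks (41, 68 and 64 counts) and at 0.308, 0.137, 0.202 and 0.411 CPM at 4 weeks (10, 5, 6 and 11 counts). The log2 change was -2.83 ± 0.43 (adjusted p = 0.00164; -3.07 ± 0.56 with the set term). Every library of 4 weeks was below the lowest of 3 weeks.

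Sema4d (chr13:51685529-51793747, minus strand), Parvb (chr15:84232043-84315688, plus strand) and Traf3 (chr12:111166370-111267153, plus strand) were well expressed genes with small, even falls. Sema4d encodes a membrane semaphorin that signals through plexin B receptors and is found on oligodendrocytes. It was at 187, 195 and 193 CPM at 3 weeks and at 125, 148, 135 and 123 CPM at 4 weeks (log2 change -0.54 ± 0.06, adjusted p = 7.74e-05). Parvb encodes beta-parvin, which links integrin-linked kinase to actin. It was at 104, 108 and 103 CPM at 3 weeks and at 74.6, 81.8, 67.5 and 65.8 CPM at 4 weeks (-0.55 ± 0.06, adjusted p = 7.74e-05). Traf3 encodes an adaptor of TNF receptor and antiviral signalling. It went from 153, 159 and 131 CPM to 80, 89.3, 98 and 96.7 CPM (-0.70 ± 0.09, adjusted p = 0.000154). With the set term the changes were -0.50, -0.44 and -0.81 for Sema4d, Parvb and Traf3, and in none of the 3 did the ages overlap.

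**Figure D2:**
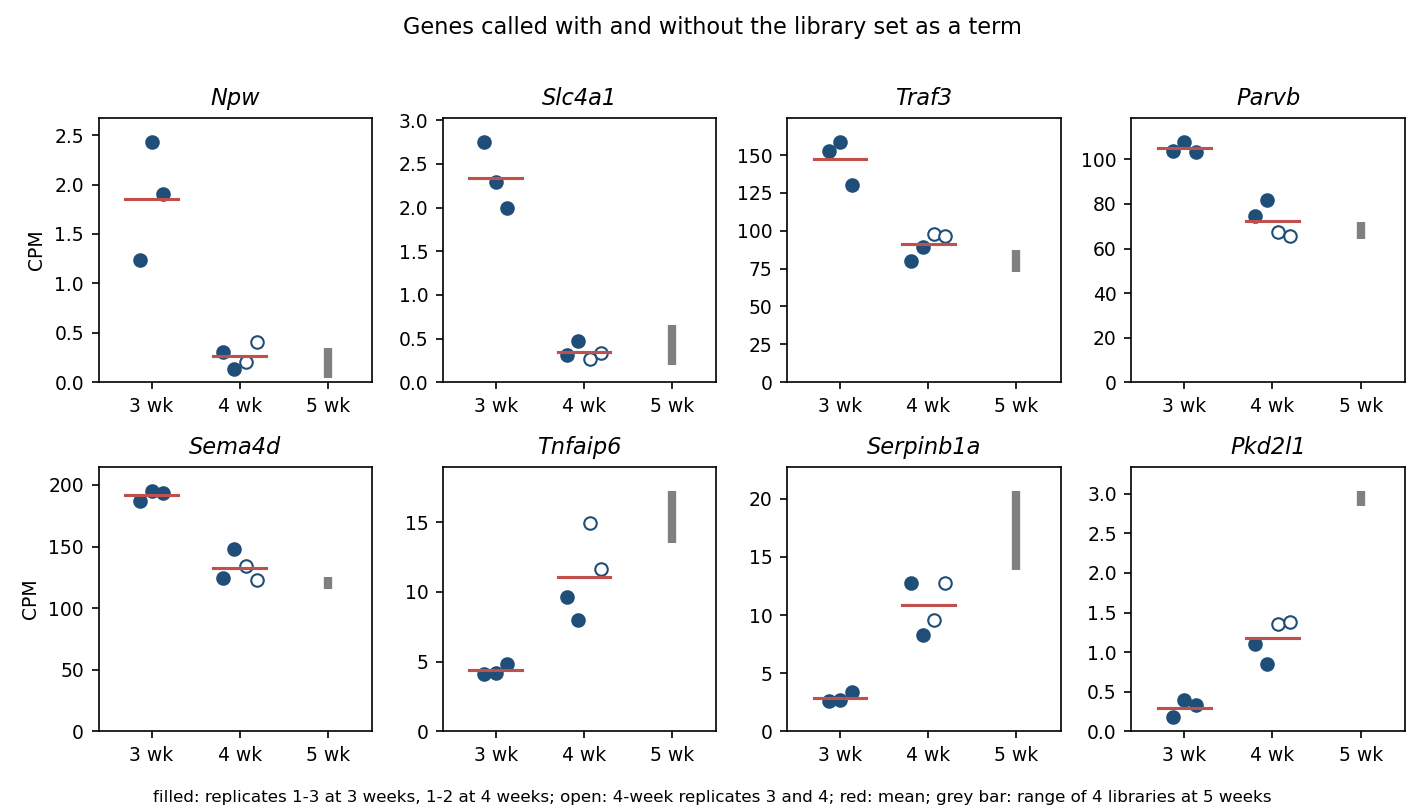
Levels in CPM (y axes, from 0) of the 8 genes called with and without the library set as a term, by age (x axes). Points are libraries, open for 4-week replicates 3 and 4; red lines are means and grey bars the range of the 4 libraries of 5 weeks. In each panel the 3-week and 4-week points do not overlap, so open and filled points of 4 weeks lie on the same side of the 3-week points. The genes were chosen for passing both ways, which favours such a lack of overlap.

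Among genes of the oligodendrocyte lineage, 4 of 25 measured genes of the precursor and newly formed stage fell and none rose, 22 had a log2 change below 0, and the median was -0.31 (-0.26 with the set term), against -0.00 for all genes tested. In 16 of the 25 (64%) every library of 4 weeks was below every library of 3 weeks. In bulk tissue fewer cells of a type and less RNA per cell cannot be told apart. No list gene passed with the set term, without replicate 1 of 3 weeks, or without replicate 3 or 4 of 4 weeks, while DESeq2 called 6. The list median with any 1 library left out lay between -0.36 and -0.29.

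Gpr17, a receptor that holds back the final maturation of oligodendrocytes, was at 243, 218 and 228 CPM at 3 weeks and at 160, 150, 138 and 143 CPM at 4 weeks. All 4 libraries of 4 weeks were below all of 3 weeks (log2 change -0.64 ± 0.12, adjusted p = 0.0116). Its exons overlap those of Lims2 on the opposite strand, and the strand setting of the counting is not given, so the counts of these neighbours are uncertain. Kif19a, a kinesin enriched in the same stage, went from 24.3, 26.6 and 25 CPM to 14.4, 18.7, 13.1 and 15.5 CPM (-0.72 ± 0.16, adjusted p = 0.0333). Itpr2, an intracellular calcium channel used as a marker of newly formed oligodendrocytes, went from 49.3, 45.7 and 45.7 CPM to 37.5, 34.6, 34.5 and 32.6 CPM (-0.44 ± 0.08, adjusted p = 0.0151). Both had no overlap between the ages, and the sets lay close together in each.

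Fyn, a kinase that acts in the start of myelination and is also expressed by neurons, was even at 3 weeks (262, 257 and 261 CPM) and was at 223 and 226 CPM in 4-week replicates 1 and 2 and at 187 and 188 CPM in 3 and 4, a difference between the sets that did not pass (adjusted p = 0.329). Its log2 change was -0.34 ± 0.07 (adjusted p = 0.0236) and -0.22 ± 0.07 with the set term. Enpp6, the marker most often used for newly formed oligodendrocytes, did not pass: it was at 35.9, 30.8 and 34.7 CPM and then at 25.5, 25.2, 24 and 20.1 CPM (-0.52 ± 0.18, adjusted p = 0.228). Pdgfra, the receptor that defines precursors, had a log2 change of -0.30 ± 0.08 (adjusted p = 0.139), and the lineage factor Olig2 one of -0.44 ± 0.10 (adjusted p = 0.0568). Neither passed, although no library of 4 weeks reached the level of 3 weeks in either.

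The major myelin genes did not pass in either direction. Of 28 genes of myelin and mature oligodendrocytes 3 rose and none fell, and the median was 0.12 (0.18 with the set term, and 0.051 to 0.26 with any 1 library left out). Without replicate 1 or 2 of 3 weeks, or replicate 3 or 4 of 4 weeks, 1 gene passed, Serpinb1a. Mbp had a log2 change of -0.12 ± 0.18 (adjusted p = 0.861) and Mog one of 0.10 ± 0.12. The 3 that rose were Serpinb1a, described above, Qdpr and Hapln2. In 8 of the 28 (28.6%) every library of 4 weeks was above every library of 3 weeks, and in 2 (7.14%) every one was below. Of the 28, 17 had a log2 change above 0 and 11 one below 0, down to -0.465. The summed level of the list overlapped between the ages, at 22700 to 28600 CPM at 3 weeks and 22700 to 25200 CPM at 4 weeks.

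Qdpr encodes dihydropteridine reductase, which recycles tetrahydrobiopterin and is high in mature oligodendrocytes. It was at 140, 147 and 168 CPM at 3 weeks and at 233, 232, 265 and 253 CPM at 4 weeks (0.69 ± 0.14, adjusted p = 0.022). An exon of Qdpr overlaps Gm42413 on the opposite strand. Hapln2 encodes a link protein of the matrix at nodes of Ranvier. It was at 20.4, 22 and 27.2 CPM and then at 30.2, 40.4, 37.7 and 37.6 CPM (0.64 ± 0.13, adjusted p = 0.0182). The ages did not overlap in either gene, and both were higher again at 5 weeks, at means of 306 and 45 CPM. Trf, which encodes the iron carrier transferrin, had a change of like size that did not pass (0.58 ± 0.16, adjusted p = 0.143), as did Apod (0.65 ± 0.22, adjusted p = 0.245) and Aspa (0.48 ± 0.14, adjusted p = 0.146). Only Serpinb1a of this list passed with the set term.

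Sirt2, a deacetylase abundant in oligodendrocytes that was in neither list, fell from 377, 386 and 403 CPM to 282, 286, 233 and 251 CPM (-0.57 ± 0.10, adjusted p = 0.00773). Its exons overlap Nfkbib on the opposite strand. Sirt2 was also lower in 4-week replicates 3 and 4 than in 1 and 2, a difference between the sets that did not pass (adjusted p = 0.836). Its change with the set term was -0.47.

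**Figure D3:**
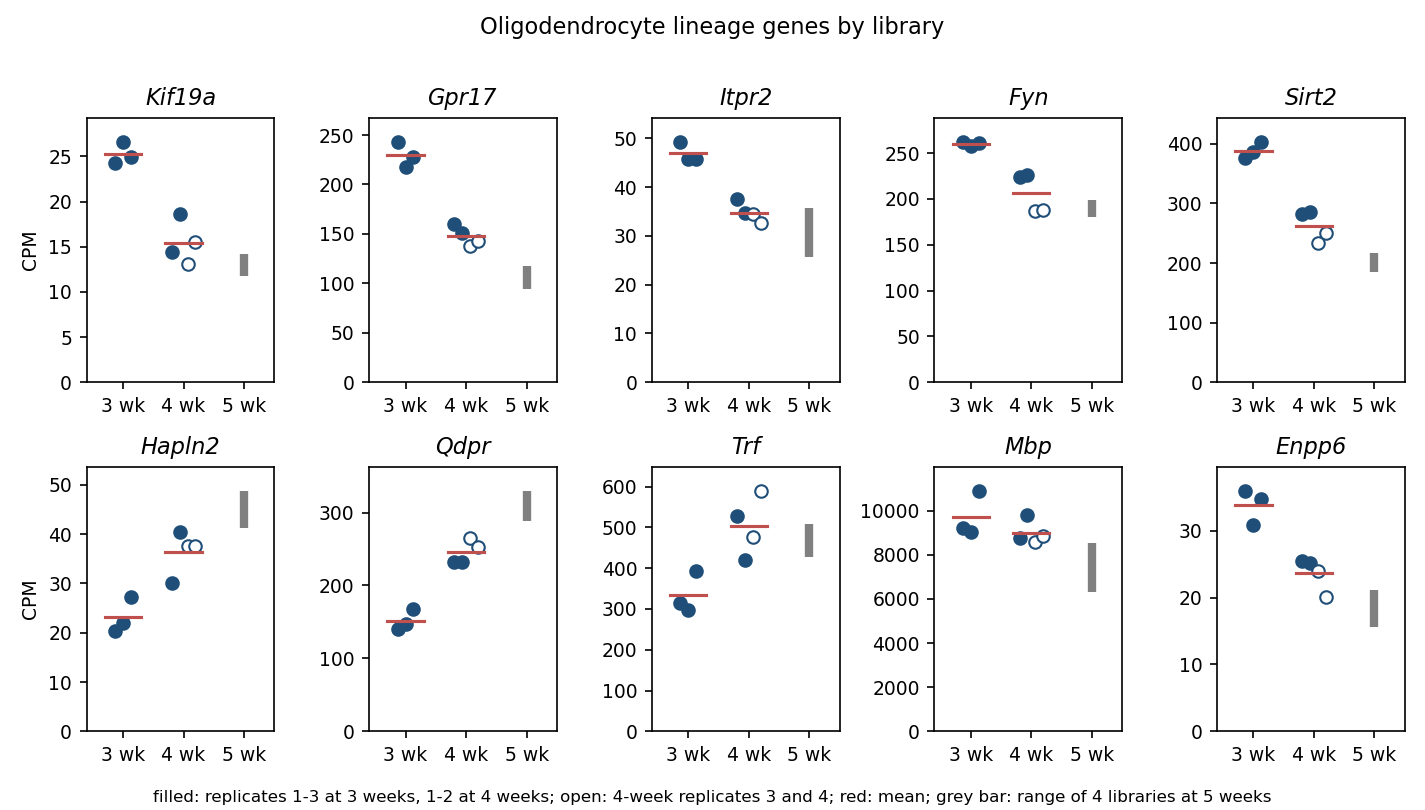
Levels in CPM (y axes, from 0) of 10 oligodendrocyte genes by age (x axes); points are libraries, open for 4-week replicates 3 and 4, red lines are means and grey bars the range of the 4 libraries of 5 weeks. Kif19a, Gpr17, Itpr2, Fyn and Sirt2 lie lower at 4 weeks and Hapln2 and Qdpr higher, while Trf, Mbp and Enpp6 did not pass the test.

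Of 13 measured genes of red blood cells, 3 fell, Slc4a1 and Alas2 among them, and none rose. All 13 had a log2 change below 0, and the median was -1.09 (-0.80 with the set term). The summed level of the list was 1130, 725 and 781 CPM at 3 weeks and 667, 542, 455 and 416 CPM at 4 weeks, so that replicate 1 of 3 weeks was highest. Without that library 1 of the 13, Slc4a1, passed, and the median was -0.78.

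Slc4a1 (chr11:102348824-102366203, minus strand) encodes band 3, the anion exchanger of the red cell membrane. It was at 2.75, 2.29 and 1.99 CPM at 3 weeks (91, 64 and 67 counts) and at 0.308, 0.467, 0.27 and 0.336 CPM at 4 weeks (10, 17, 8 and 9 counts). The log2 change was -2.75 ± 0.38 (adjusted p = 0.000843; -2.59 ± 0.49 with the set term). Alas2 (chrX:150547375-150570638, plus strand), the first enzyme of heme synthesis in red cell precursors, was at 35.3, 19 and 19.6 CPM and then at 8, 6.93, 5.23 and 4.37 CPM (-2.01 ± 0.32, adjusted p = 0.00309). An exon of Alas2 overlaps Apex2 on the opposite strand. In both genes every library of 4 weeks was below every library of 3 weeks.

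The globin genes, whose RNA also persists in circulating reticulocytes, changed less and did not pass. Hbb-bt was at 94.8, 56.9 and 56.9 CPM at 3 weeks and at 35.4, 26.4, 16.6 and 15.9 CPM at 4 weeks (-1.57 ± 0.37, adjusted p = 0.0686). Hbb-bs had a log2 change of -1.08 ± 0.39 (adjusted p = 0.262) and Hba-a1 of -1.09 ± 0.39 (adjusted p = 0.26), and reads of near-identical globin copies can be split between them. In each of the 3, replicate 1 was the highest library of 3 weeks and replicates 3 and 4 were the lowest of 4 weeks. Bpgm, which the brain expresses as well, had a log2 change of -0.05.

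The promoters of most red cell genes with a sequence at hand held GATA letters. GATA1 is the factor that drives red cell genes, and it binds sites with the core AGATAA or TGATAA. Of the 16 genes of the list, 11 had a window in the RefSeq table of GRCm38.p6 promoters (250 bases before to 50 after the start), and 8 of these 11 held AGATAA or TGATAA on either strand, against 18.6% of all 32851 windows. CCACACCC, a core bound by KLF1, was found on either strand in 1 of the 11, Hbb-bs, against 3.56% of all windows. A match describes the letters and is not evidence of binding. Alas2, which fell, and Hbb-bs and Hba-a1, the most abundant globin genes in these libraries, are shown from the start of the window to the base before the GENCODE gene, 5′ to 3′ on the strand of the gene, with the GATA letters in capitals (TTATCT is AGATAA read on the other strand). They lie at chrX:150547167-150547374 (plus strand), chr7:103828097-103828178 (minus strand) and chr11:32283422-32283510 (plus strand) on GRCm38.p6.
Alas2: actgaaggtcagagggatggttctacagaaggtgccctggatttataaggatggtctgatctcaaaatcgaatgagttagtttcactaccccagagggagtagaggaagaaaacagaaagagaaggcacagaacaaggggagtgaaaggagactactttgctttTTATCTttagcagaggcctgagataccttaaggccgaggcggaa
Hbb-bs: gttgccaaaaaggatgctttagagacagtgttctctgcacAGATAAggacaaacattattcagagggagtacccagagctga
Hba-a1: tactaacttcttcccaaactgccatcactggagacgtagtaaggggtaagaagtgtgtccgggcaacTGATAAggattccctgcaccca

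Of 29 genes of proliferation, which mark dividing cells, 2 fell (Top2a and Ube2c) and none rose, 24 had a log2 change below 0, and the median was -0.42 (-0.30 with the set term). Top2a, the topoisomerase that untangles chromosomes in mitosis, was at 6.41, 5.01 and 3.69 CPM and then at 2.65, 3, 1.72 and 1.72 CPM (-1.15 ± 0.24, adjusted p = 0.0295). An exon of Top2a overlaps Gm23451 on the same strand. Ube2c, a ubiquitin-conjugating enzyme of the mitotic exit, went from 1.33, 1.15 and 1.22 CPM to 0.616, 0.66, 0.371 and 0.485 CPM (-1.20 ± 0.28, adjusted p = 0.0484), and it shares exon sequence with Tnnc2 on the opposite strand. Mki67, the usual marker of cycling cells, was at 5.47, 2.4 and 2.44 CPM and then at 2.74, 1.68, 1.58 and 1.2 CPM and did not pass (-0.94 ± 0.27, adjusted p = 0.149).

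Replicate 1 of 3 weeks was the highest library for Top2a and Mki67, and no gene of the proliferation list passed without it. None passed either without replicate 2 of 3 weeks, without replicate 1, 3 or 4 of 4 weeks, with the set term or with only the 7 libraries. The replication genes of the list were level: Mcm2 to Mcm7 had log2 changes between -0.22 (Mcm2 and Mcm5) and 0.05 (Mcm4), and Pcna one of 0.00. The members with log2 changes below -1 (Aurkb, Ube2c, Ccnb1, Top2a, Cdk1 and Bub1, singled out after their values were seen) act in mitosis or chromosome handling, and of these Ube2c and Top2a passed.

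Sox4 and Marcksl1 were the 2 genes that fell among 23 markers of neural progenitors and young neurons, and none rose. Sox4, a transcription factor of immature neurons and glia, was at 60.4, 72.2 and 62.7 CPM and then at 36.4, 51.4, 39.5 and 41.4 CPM (-0.63 ± 0.13, adjusted p = 0.0198). It shares exon sequence with Gm26735 on the opposite strand. Marcksl1, an actin-regulating protein kinase C substrate, went from 254, 280 and 255 CPM to 192, 209, 185 and 181 CPM (-0.46 ± 0.10, adjusted p = 0.0236). Dcx, the microtubule protein of migrating neurons, had a log2 change of -0.20 ± 0.22 (adjusted p = 0.789), and the list median was -0.14. Sox4 and Marcksl1 each passed in 1 of the 7 fits with a library left out. DESeq2 called 4 genes of this list, all lower.

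Some genes of the extracellular matrix and of vessels were also lower. Of 14 genes of perineuronal nets, the matrix around mature neurons, Tnfaip6 rose and Ncan fell. Ncan encodes neurocan, a proteoglycan of the young brain. It was at 200, 172 and 196 CPM and then at 148, 160, 125 and 106 CPM (-0.50 ± 0.11, adjusted p = 0.0418). With the set term its change was -0.31 ± 0.12 and did not pass (adjusted p = 0.456). Ncan passed in 1 of the 7 fits with a library left out, and it did not pass with RLE size factors. The summed level of the list was 866 to 903 CPM at 3 weeks and 685 to 784 CPM at 4 weeks, and Bcan (-0.37 ± 0.12, adjusted p = 0.184) and Tnr (-0.47 ± 0.20, adjusted p = 0.366) did not pass.

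None of 24 genes of basement membranes and fibrillar matrix passed in edgeR, where 7 had an unadjusted p below 0.05, and 5 were lower in DESeq2. In that list 21 had a log2 change below 0, and the median was -0.36 (-0.38 with the set term). Col4a1, a collagen of vessel basement membranes, had a log2 change of -0.55 ± 0.16 (adjusted p = 0.142). Of 18 endothelial genes Kdr, the main VEGF receptor of vessels, fell from 37.3, 32.2 and 33.8 CPM to 24.8, 26.1, 16.4 and 15.2 CPM (-0.74 ± 0.15, adjusted p = 0.0228). The difference between the sets in Kdr, -0.69 ± 0.15, did not pass (adjusted p = 0.0567), and its change with the set term was -0.44 ± 0.13. The median of the endothelial list was -0.10, and Pecam1 and Cdh5, defining markers of endothelium, had log2 changes of -0.11 and -0.20. DESeq2 called 1 endothelial gene higher and 1 lower.

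Among the other genes with the largest changes, those that rose had varied roles. Adamtsl4, which binds fibrillin microfibrils, went from 6.44, 9.09 and 8.88 CPM to 15.8, 13.9, 13.3 and 18.7 CPM (0.91 ± 0.16, adjusted p = 0.00674). Arsg, a lysosomal sulfatase, went from 21.1, 21.8 and 27.8 CPM to 45.2, 32.9, 37.1 and 46.4 CPM (0.77 ± 0.16, adjusted p = 0.0236). Its exons overlap Slc16a6 on the opposite strand. Pls1 (0.72), an actin-bundling plastin, and Olfml1 (0.65) rose with sets that lay close together. Hist2h2be (0.72), a histone gene, and the arrestin family genes Arrdc3 (0.65) and Arrdc2 (0.56) rose with smaller changes under the set term, of 0.52, 0.43 and 0.39.

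Those that fell included Ets1, a transcription factor of lymphocytes and endothelium, from 19.1, 18.6 and 19.4 CPM to 13.8, 14.1, 12.2 and 11.7 CPM (-0.56 ± 0.10, adjusted p = 0.0106). Ube2l6, the conjugating enzyme of ISG15, fell by 0.86 on the log2 scale (adjusted p = 0.0267), with replicate 1 the highest library of 3 weeks (12.9 CPM, against 9.02 and 8.05 CPM). Zfp575 (-0.71) and the platelet glycoprotein gene Gp1bb (-0.59) fell too, and both share exon sequence with a neighbour, Ethe1 and Sept5.

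Of 16 glucocorticoid-responsive genes Mt2, a metallothionein, rose in edgeR and none fell. DESeq2 called 3 of the list higher, and 1 with the set term. In edgeR Mt2 passed in 3 of the 7 fits with a library left out and did not pass with the set term (adjusted p = 0.294). An exon of Mt2 overlaps Gm45774 on the opposite strand. Mt2 was at 68.9, 61.5 and 85.7 CPM and then at 152, 112, 186 and 217 CPM (1.20 ± 0.22, adjusted p = 0.0151; 0.86 ± 0.23 with the set term), with no overlap between the ages. The list differed between the sets: its summed level was 614, 566 and 650 CPM at 3 weeks, 815 and 676 CPM in 4-week replicates 1 and 2, and 1003 and 1093 CPM in replicates 3 and 4. The median of the list was 0.36 over all 4 libraries and 0.07 with the set term. The median of all genes tested was -0.00 and -0.01.

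None of 19 circadian clock genes passed in edgeR, where 3 had an unadjusted p below 0.05, and none passed in DESeq2. The tissue was taken at 1 time of day, so these values are levels and say nothing of rhythm. Nr1d1 had a log2 change of 0.18 ± 0.10 (adjusted p = 0.49) and Per1 of 0.26 ± 0.17 (adjusted p = 0.573). Per1 and Dbp parted by set at 4 weeks: Per1 was at 44.9 and 55.6 CPM in replicates 1 and 2 and at 83.5 and 81.8 CPM in 3 and 4, against 53 to 56 CPM at 3 weeks.

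Genes of puberty and reproduction showed no change that passed. Of 23 measured, 1 had an unadjusted p below 0.05 in edgeR, none passed in edgeR or DESeq2, and the median log2 change was -0.12. Gnrh1, the precursor of gonadotropin-releasing hormone, was at 1.18, 2.08 and 0.921 CPM (39, 58 and 31 counts) and then at 0.462, 1.73, 1.85 and 1.98 CPM (15, 63, 55 and 53 counts), with a log2 change of 0.11 ± 0.59. The ages overlapped, and replicate 1 of 4 weeks, which held the least hypothalamic transcription factor RNA, was the lowest library. Kiss1, the activator of Gnrh1 neurons, was at 0.272, 0.644 and 0.446 CPM and then at 0.708, 0.77, 0.506 and 0.747 CPM (0.59 ± 0.50, adjusted p = 0.71). Tac2, the neurokinin B gene of the same neurons, had a log2 change of -0.04 ± 0.23, the estrogen receptor gene Esr1 of -0.16 ± 0.20 and Mkrn3, a gene that restrains puberty, of -0.14 ± 0.20.

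Nor did any of 27 neuropeptide genes pass in edgeR or DESeq2, and none had an unadjusted p below 0.05 in edgeR. Avp (vasopressin) was at 266, 401 and 182 CPM and then at 194, 321, 373 and 353 CPM (0.12 ± 0.49, adjusted p = 0.959). Oxt (oxytocin) had a log2 change of 0.11 ± 0.41, Pomc, of the melanocortin neurons, of 0.13 ± 0.37 and Agrp, their feeding counterpart, of 0.33 ± 0.30. In Avp and Oxt the ages overlapped, and replicate 2 was the highest library of 3 weeks, as it was for the hypothalamic transcription factors (379 CPM summed, against 281 and 274 CPM). None of those 24 factors passed in edgeR or DESeq2, and 1 had an unadjusted p below 0.05 in edgeR. Of the 24, 21 had a log2 change below 0, and the median was -0.16 (-0.42 with the set term). With any 1 library left out that median lay between -0.371 and 0.0529.

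**Figure D4:**
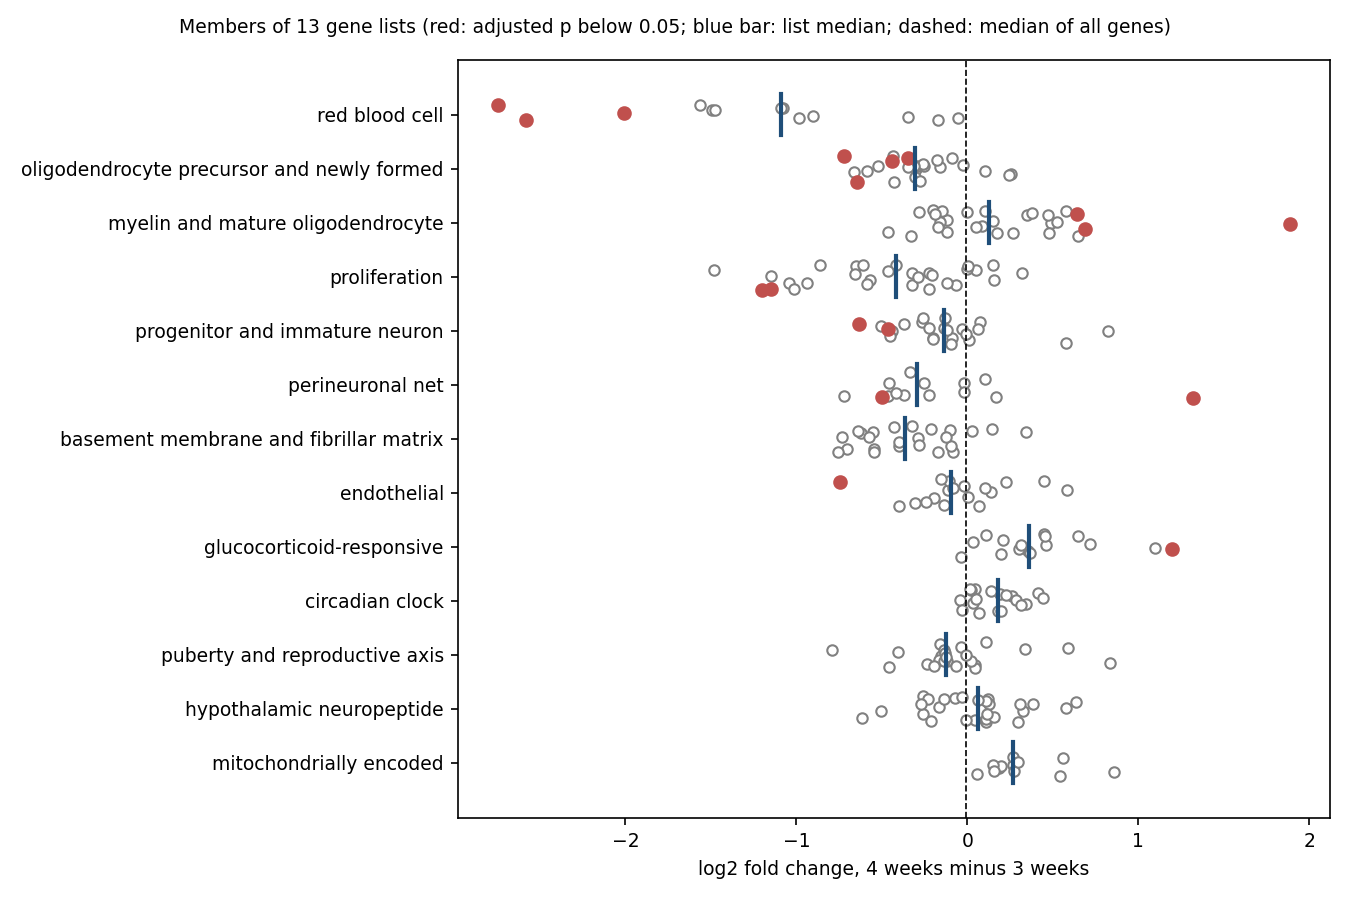
Log2 fold changes, 4 weeks minus 3 weeks (x axis), of every tested member of 13 gene lists (rows). Red points passed an adjusted p of 0.05, blue bars are list medians and the dashed line is the median of all genes; the red blood cell list has the lowest median, -1.09, and the glucocorticoid-responsive list the highest, 0.36.

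Other lists had no called member in edgeR: astrocytes (19 genes, 3 with an unadjusted p below 0.05), microglia (19 genes, 1), synapses and mature firing (31 genes, 5), cholesterol synthesis (24 genes, 6), interferon-stimulated genes (20 genes, 5), thyroid hormone-responsive genes (17 genes, 2) and tanycytes and ependyma (16 genes, 1). DESeq2 called 1 astrocyte gene higher, 1 synapse gene lower and none of the others. Immediate early genes, of which Fos had a log2 change of -0.12, and endoplasmic reticulum chaperones, of which Hspa5 had one of -0.04, had no called member in either tool. In the immediate early list 2 of 17 genes had an unadjusted p below 0.05, and in the chaperone list 0 of 15 did.

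Cytosolic heat shock genes (13 genes, 5 with an unadjusted p below 0.05) and border macrophages and lymphocytes (13 genes, 0) had no called member in edgeR or DESeq2. Of 8 structured or nuclear RNAs none passed in edgeR, 3 had an unadjusted p below 0.05 and DESeq2 called 2 higher, and their median was 0.78, or 0.22 with the set term.

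Lists of other tissue (choroid plexus, pituitary, thalamus, striatum, cortex and salivary gland) had no called member in edgeR or DESeq2 either, and 1 thalamic and 2 striatal genes had an unadjusted p below 0.05 in edgeR. Ttr, the defining gene of the choroid plexus, was at 13.5, 11.7 and 99.3 CPM and then at 10.3, 7.26, 3.67 and 13.1 CPM (-2.29 ± 2.06, adjusted p = 0.735), so that 1 library of 3 weeks carried the difference. The medians were 0.26 for 14 thalamic genes and -0.46 for 13 striatal genes. Without replicate 1 of 3 weeks the striatal median was 0.04, and the thalamic median lay between 0.02 and 0.50 with any 1 library left out. All 13 genes that the mitochondrial genome encodes had a log2 change above 0, with a median of 0.27 (0.26 with the set term) and none called in edgeR. In 6 of them (46.2%) every library of 4 weeks was above every library of 3 weeks, and 5 had an unadjusted p below 0.05. DESeq2 called 1.

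The library sets at 4 weeks were compared directly. Of the 16916 genes, 33 (0.195%) differed between replicates 3 and 4 and replicates 1 and 2. Of these, 21 (0.124%) were higher and 12 (0.0709%) lower in replicates 3 and 4. None of the 33 was among the 85, which were 0.502% of the genes tested. A gene that differs between the sets also varies more within 4 weeks, which works against an age call, so the lack of shared genes says little. Bpifa2 defined the sets, so its difference is a description. Bpifa2 and 5 other genes had no count in replicates 3 and 4, and against a floor of 3 counts over both libraries they were at least 749-fold (Bpifa2), 136-fold (Smr3a), 44.7-fold (Dcpp1), 31.3-fold (2310057J18Rik), 27.2-fold (Car6) and 23.6-fold (Pip) higher in replicates 1 and 2. Bpifa2, Smr3a, Dcpp1, Car6 and Pip are secreted by salivary or lacrimal glands. All 6 were present in the 3 libraries of 3 weeks, at 1.06 to 46.5 CPM.

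Edn1, Cldn5 and Mmp14 were among the 12 genes lower in replicates 3 and 4. Edn1 (endothelin 1) was at 3.82 and 3.11 CPM in replicates 1 and 2 and at 1.04 and 0.896 CPM in 3 and 4 (-1.82 ± 0.30, adjusted p = 0.00472), and Cldn5, the claudin of brain endothelium, at 81.1 and 93.7 CPM against 49.4 and 46.7 CPM (-0.86 ± 0.18, adjusted p = 0.0431). Mmp14, a membrane protease, was at 48.6 and 77.1 CPM against 26.3 and 19.2 CPM (-1.46 ± 0.23, adjusted p = 0.00376). The summed level of the 18 endothelial genes was 779 and 778 CPM in replicates 1 and 2 and 768 and 718 CPM in 3 and 4. In Edn1 and Cldn5 the 3 libraries of 3 weeks lay near replicates 1 and 2.

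Tsc22d3, Klf15, Fkbp5, Hif3a, Per2, Dbp, Fosb, Fosl2 and Hspa1b were among the 21 genes higher in replicates 3 and 4. Tsc22d3, a glucocorticoid-induced leucine zipper, was at 97.6 and 82.4 CPM against 148 and 171 CPM (0.83 ± 0.15, adjusted p = 0.0103), and Klf15 (0.84), Fkbp5 (0.53) and Hif3a (2.44) passed too. The clock genes Per2 (0.89) and Dbp (0.75), the activity-dependent Fosb (1.80) and Fosl2 (1.26) and the heat shock gene Hspa1b (1.15) were also higher there, while Per1 (adjusted p = 0.0603) and Fos (adjusted p = 0.588) did not pass between the sets. None of these 9 genes was called between the ages, where their spread at 4 weeks works against a call. These genes were named after their values were seen, and the labels name no difference between the sets.

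**Figure D5:**
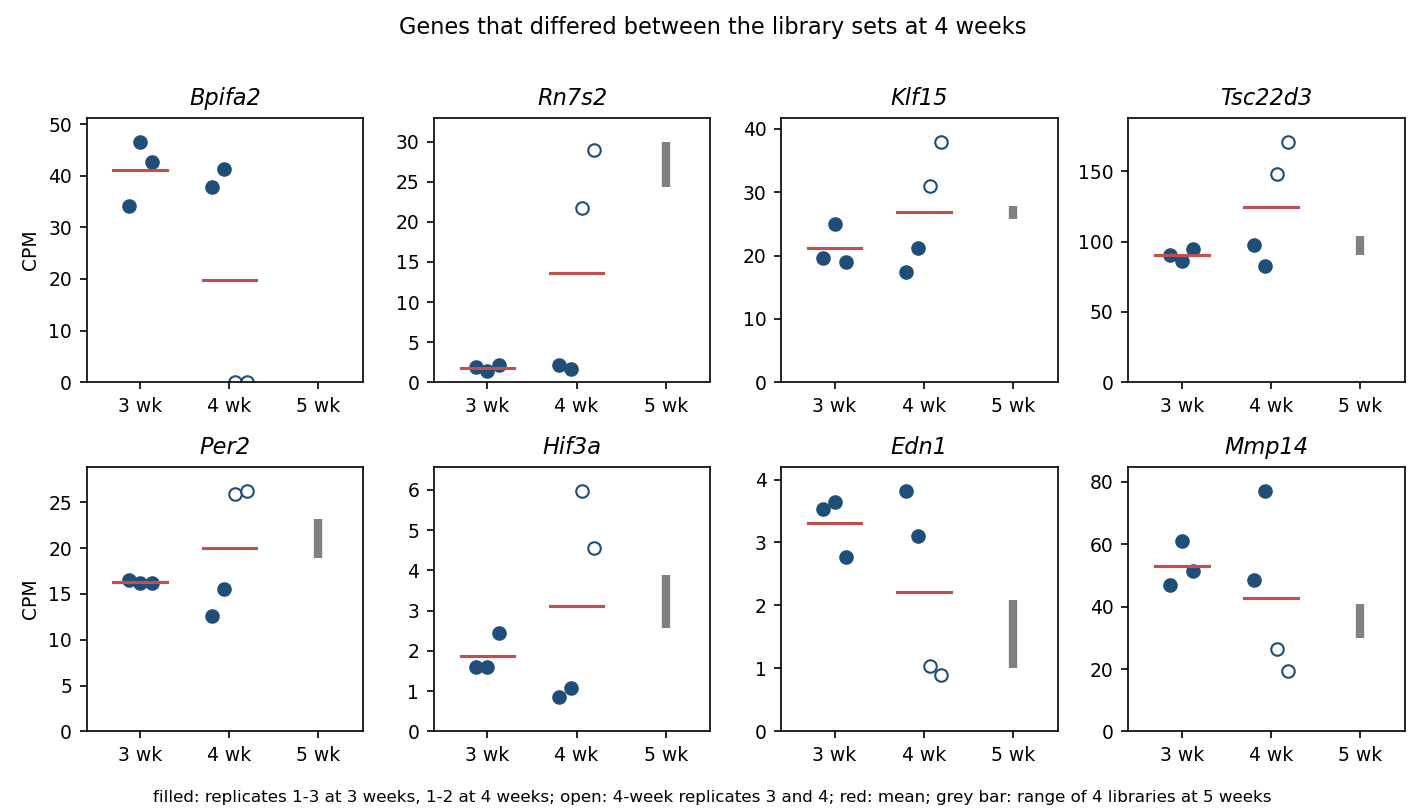
Levels in CPM (y axes, from 0) of 8 genes that differed between the library sets at 4 weeks, by age (x axes); filled points are 3-week replicates and 4-week replicates 1 and 2, open points are 4-week replicates 3 and 4, red lines are means and grey bars the range of the 4 libraries of 5 weeks. Bpifa2 was at 0 in the open points and at 5 weeks, where no bar is visible, and the filled points of the 2 ages lie close together in Rn7s2, Tsc22d3 and Edn1.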

How the data were processed

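The authors deposited raw counts per gene symbol, 1 file per library. HISAT2 2.1.0, HTSeq 0.9.1 and the build mm10 (GRCm38) are named in the submitters' processing notes. The annotation, the strand setting and any trimming: not given in the sources used here. Genes that overlap or nearly match a copy therefore have uncertain counts: 27 of the 85 called genes have an exon that overlaps another gene, 23 on the opposite strand. The HTSeq summary lines (27.58 to 31.14% of the total) were dropped.

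Counts were fitted with edgeR 4.0.16 (R 4.3.3) by the robust quasi-likelihood method, two-sided, with 1 mean per age over 28 libraries. A 24-month library that held few genes was left out. Genes were filtered with filterByExpr by age (16916 of 24499 symbols) and scaled by TMM, and p-values were adjusted by Benjamini-Hochberg over all genes. CPM use the TMM-scaled library sizes. A ± after a log2 change is 1 SE. DESeq2 1.42.0 was an alternative, beside others given in the closing section. A model was also tested on simulated data.

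Named genes are the 12 highest and 12 lowest log2 changes among called genes with no overlap between the ages and a mean of at least 5 CPM (Gm-number, Rik, -ps and Rn-number symbols passed over), up to 4 called members of each of 32 lists, up to 12 genes called with the set term, and a fixed panel of 27 genes. Other members are named as examples of their list, and some are not reported here. The members, lists and panel were chosen with earlier results of these data known. Same-numbered libraries of the ages deviated together for numbers 1 and 2 and not for number 3 (r = 0.426, 0.283 and -0.259 over 11092 genes), so the numbers were not taken as pairs. All 21 pairs of libraries differed beyond counting noise (9.3 to 63.3 times the variance of counting).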

Additional observations from a re-analysis of the deposited data

Results flagged for a closer look

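In 2 of 59 genes examined, 1 of the 4 libraries of 4 weeks stood apart from the other 3 by Dixon's test at the 95% level. Gnrh1 was at 0.4617 CPM in replicate 1 of 4 weeks, below the other 3 (a gap of 0.837 of the range). Agrp was at 3.931 CPM in replicate 2 of 4 weeks, below the other 3 (0.896). Chance gives about 1 such library in 20 groups.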

How the results depend on the processing

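The count of 85 (31 higher, 54 lower) was 84 with RLE size factors and 81 with no filter. It was 8 with the set term, 14 with only the 7 libraries (9 of them among the 85), 229 with DESeq2 (82 higher, 147 lower; 80 among the 85) and 47 with the set term in DESeq2 (29 among the 85). With only the 7 libraries it was 0 both with the set term (1616 at an unadjusted p below 0.05) and with the replicate block (2357), a smaller fit with few residual degrees of freedom. Leaving out 1 library gave 12 (without replicate 1 of 3 weeks) to 208 (without replicate 2 of 4 weeks). DESeq2 gave no adjusted p for 4 of the 35 named genes among the 85. The difference between the sets, 33 genes, was 22 with only the 7 libraries, 28 with RLE, 27 with no filter, 89 with DESeq2 and 4 to 16 with 1 library left out, where a lone library of a set is assumed to vary like the others. No paired analysis was possible between the sets because they share no replicate number. All 85 genes kept their direction in every setting. In 84 of them the ages did not overlap, so with the set term or 1 library left out this was largely fixed in advance. Changes of direction were in genes that did not pass. With the set term, alone, with only the 7 libraries and in DESeq2, Gnrh1 was at -0.33, -0.31 and -0.34, Mkrn3 at 0.074, 0.083 and 0.082, Avp at -0.15, -0.14 and -0.14, Oxt at -0.32, -0.30 and -0.31 and Per1 at -0.14, -0.13 and -0.13. With the replicate block Gnrh1 was at -0.12 and Oxt at -0.0095. With 1 library left out, log2 changes spanned 0 for Gnrh1 (-0.12 to 0.51), Tac2 (-0.17 to 0.066), Mkrn3 (-0.31 to 0.22), Avp (-0.12 to 0.47), Oxt (-0.075 to 0.42), Pomc (-0.20 to 0.51), Dbp (-0.23 to 0.098), Hspa5 (-0.11 to 0.033) and Fos (-0.41 to 0.19). The cause was not tested. The set term was tried in DESeq2 and with only the 7 libraries after the data were seen. At this depth 3 counts made 0.0808 to 0.108 CPM, so genes near that level give no firm change.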
